A study of Mus musculus with 12 samples.

Results

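Messenger RNA of FoxO factors, atrogenes and insulin receptor substrates was examined in the left ventricle (LV) and right ventricle (RV) of humanized phospholamban (PLN) mouse hearts. The group comprised 10 genes, chosen by their symbols among the 33641 genes listed in every sample: the forkhead factors Foxo1, Foxo3 and Foxo4, the muscle ubiquitin ligases Fbxo32 and Trim63, the sestrins Sesn1 and Sesn3, the insulin receptor substrates Irs1 and Irs2, and Pik3r1. All 10 were found and all 10 averaged 0.5 TPM or more, the filter that left 12526 genes to be tested (TPM is the length-scaled share of all transcripts that a gene holds). There were 3 samples each of WT-PLN LV, WT-PLN RV, R14del-PLN LV and R14del-PLN RV, 12 in all, from mice labelled C57BL/6J and 12 to 14 weeks old. In both genotypes a human PLN coding sequence replaced that of the mouse gene, in a hybrid line founded by chimeras of 129/Sv-CP and C57Bl/6J and bred to Sox2-Cre mice, in which Cre acts in the early embryo and so in the whole animal. By the methods of the study, WT-PLN controls carried the human WT sequence, and R14del-PLN mice were heterozygous, with an allele that lacks arginine 14 of the protein and an intact human allele. The sample titles call the mutant a knock-out, although the gene was not deleted. The comparisons asked whether genotype or ventricle altered the transcripts of this pathway.

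Forkhead box O (FoxO) proteins are transcription factors that are held in the cytoplasm when insulin or IGF1 activates phosphoinositide 3-kinase and AKT. When the signal weakens, as in fasting, they enter the nucleus and raise genes for protein breakdown, autophagy and stress resistance. In heart and skeletal muscle their best known targets are the atrogenes Fbxo32 (atrogin-1) and Trim63 (MuRF1), ubiquitin ligases named for their rise in muscle wasting. Sestrins are stress-induced inhibitors of mTORC1, the kinase complex that drives protein synthesis. IRS1 and IRS2 carry the signal from the insulin receptor to the kinase, of which Pik3r1 encodes a regulatory subunit, and FoxO factors in turn raise Irs2 in several tissues.

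The knock-in locus was read in every sample, with Pln between 1559 and 1963 TPM and overlapping ranges between genotypes in each ventricle. Ventricular cardiomyocyte markers summed to 32291 to 49264 TPM and were detected in all 12 samples, whereas lymphocyte markers summed to at most 1.34 TPM. The study states that male mice were used, but in both WT-PLN replicate 1 samples 4 Y-linked genes were at 0.0159 to 0.191 TPM, while the other 10 samples held them at 3.03 to 30.6 TPM. These samples are therefore called the samples labelled WT-PLN replicate 1, and results that rest on them are given with and without them. Mitochondrially encoded genes held 37.3% of all TPM in R14del-PLN LV replicate 3 and 44.0% to 54.5% in the other samples. The data of R14del-PLN RV replicate 3 are named for another sequencing run and lane than those of the other 11 samples. TPM values keep no record of depth, so no counting error could be given. The study counts mice as its replicates, although the labels do not name the animal behind each sample, and p-values measure the spread between these samples.

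In level, Trim63 led the group with a mean of 69.4 TPM over the 12 samples, followed by Sesn1 at 56.8 TPM, Pik3r1 at 26.9 TPM and Fbxo32 at 22.5 TPM. Foxo4 at 19.1 TPM and Foxo3 at 17.5 TPM were the abundant forkhead factors, whereas Foxo1 had a mean of 1.98 TPM. Irs2 had a mean of 3.43 TPM, Sesn3 of 3.03 TPM and Irs1 of 1.54 TPM. The ranges of all 9 pairs of neighbours in this order overlapped across samples, although Sesn1 was above Pik3r1 and Foxo3 above Irs2 in all 12 samples. Together the 10 genes held 0.0225% to 0.0280% of all TPM in WT-PLN and 0.0170% to 0.0232% in R14del-PLN samples. The plot of levels by sample gives each value.

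**Figure D1:**
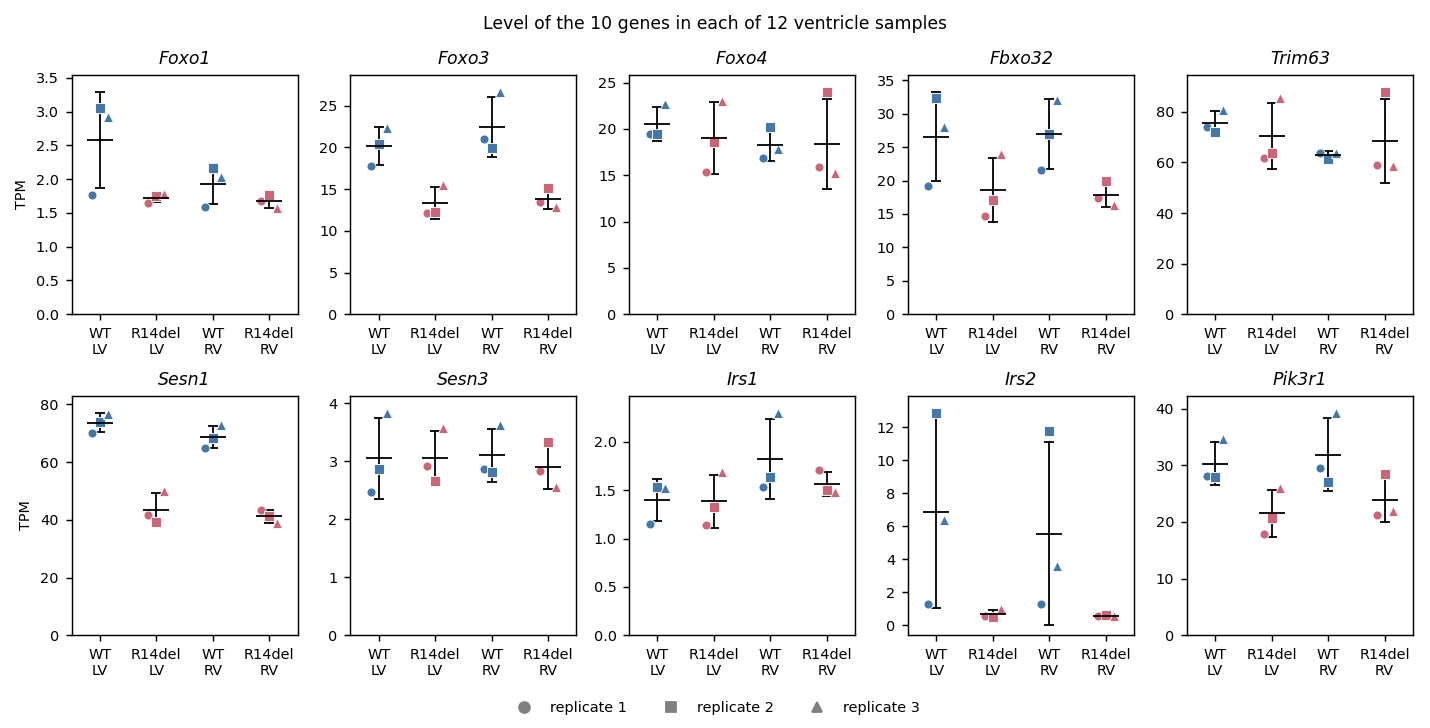
Level of each of the 10 genes in TPM (vertical axes start at 0, or just below it for Irs2) in the 4 groups; symbols mark the 3 samples of a group by replicate number, long bars the mean and error bars the SD. Sesn1 lay between 65.0 and 76.7 TPM in WT-PLN and between 39.0 and 50.1 TPM in R14del-PLN samples, while Irs2 in WT-PLN samples spanned 1.29 to 12.9 TPM.

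Sesn1 was the member that passed the test in both ventricles, and its level in R14del-PLN hearts was 0.592 of that in WT-PLN hearts in the LV and 0.601 in the RV. SESN1 is a p53- and FoxO-responsive inhibitor of mTORC1 that is abundant in muscle. In the LV it was at 70.2, 74.1 and 76.7 TPM in WT-PLN and at 41.5, 39.1 and 50.1 TPM in R14del-PLN samples. The RV values were 65.0, 68.3 and 72.8 TPM in WT-PLN and 43.5, 41.2 and 39.0 TPM in R14del-PLN samples. The groups did not overlap in either ventricle, and the highest of the 6 R14del-PLN samples stayed below the lowest of the 6 WT-PLN samples. The mean was 73.7 ± 3.25 TPM against 43.6 ± 5.76 TPM in the LV and 68.7 ± 3.91 TPM against 41.2 ± 2.29 TPM in the RV (SD, n = 3 each). On the log2(TPM + 1) scale Sesn1 fell by 0.75 in the LV (SE 0.12, limma with Benjamini-Hochberg adjustment over all tested genes, adjusted p = 0.0120) and by 0.72 in the RV (SE 0.12, limma adjusted p = 0.0168). In bulk tissue, fewer cells of a type and less RNA per cell cannot be told apart. Without both samples labelled WT-PLN replicate 1 the difference was -0.78 in the LV and -0.76 in the RV (limma adjusted p = 0.0208 and 0.0362), and without mitochondrially encoded genes it was -0.74 and -0.69 (limma adjusted p = 0.000195 and 0.000306). The call was lost in both ventricles when only the 6 samples of that ventricle entered the fit (limma adjusted p = 0.0577 in the LV and 0.0553 in the RV), although the difference itself was the same. It was also lost in the LV without WT-PLN replicate 2, WT-PLN replicate 3, R14del-PLN replicate 1 or R14del-PLN replicate 2, with limma adjusted p from 0.0707 to 0.0763, and in the RV without WT-PLN replicate 2, WT-PLN replicate 3, R14del-PLN replicate 2 or R14del-PLN replicate 3, with limma adjusted p from 0.0513 to 0.108.

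Sesn1 occupies bases 41809935 to 41908424 of chromosome 10 (GRCm38), on the plus strand. RefSeq gives it a pair of promoters, and the first is shown because it holds a match to the FoxO core motif GTAAACA, read here on the opposite strand and printed in capitals. The window of 300 bases on the plus strand of GRCm38.p6, chr10:41810324-41810623, ends 50 bases into the transcript. Its match begins 22 bases after the RefSeq start site, which lies inside the span given above from GENCODE. The promoter of Trim63, the other member with this motif, is shown beside it, since the level of Trim63 did not pass the test: it lies on the plus strand at chr4:134314870-134315169 and holds GTAAACA on the opposite strand and, ahead of it, ACANNNTGT, the spaced palindrome that the glucocorticoid receptor recognises.
Sesn1: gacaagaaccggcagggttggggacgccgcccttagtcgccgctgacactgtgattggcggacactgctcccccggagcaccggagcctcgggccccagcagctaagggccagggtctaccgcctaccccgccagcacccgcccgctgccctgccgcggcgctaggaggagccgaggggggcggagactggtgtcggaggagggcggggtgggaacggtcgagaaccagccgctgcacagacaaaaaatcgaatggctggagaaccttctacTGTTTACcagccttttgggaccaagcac
Trim63: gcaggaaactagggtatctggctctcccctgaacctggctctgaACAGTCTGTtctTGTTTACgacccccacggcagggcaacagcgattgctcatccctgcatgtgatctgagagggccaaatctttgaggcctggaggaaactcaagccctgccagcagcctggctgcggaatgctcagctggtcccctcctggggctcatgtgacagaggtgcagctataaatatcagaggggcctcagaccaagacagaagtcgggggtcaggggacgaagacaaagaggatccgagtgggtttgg
Both strands were searched, and GTAAACA was in 3.65% and ACANNNTGT in 6.85% of the 32851 RefSeq promoters of the same length. The capitals mark letters that match, not sites known to be bound. Promoters were found for 8 members, 10 promoters in all; Foxo4 and Fbxo32 were not in the table.

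Sesn3, the other sestrin of the group and a FoxO1 target in several tissues, had means between 2.91 and 3.10 TPM in the 4 groups. Its log2 difference between genotypes was 0.01 (SE 0.15) in the LV and -0.07 (SE 0.15) in the RV, with 95% intervals of -0.32 to 0.34 and -0.40 to 0.26. Sesn2, counted among the inputs of mTOR below, had log2 differences of 0.03 in the LV and 0.02 in the RV. Of the 3 sestrin transcripts, Sesn1 was thus the one with a call, and whether its change differed from that of Sesn3 was not tested.

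Foxo3, the FoxO factor most often tied to atrogene induction in muscle, was lower in all R14del-PLN samples than in any WT-PLN sample of the same ventricle, but did not pass the adjusted test. In the LV it was at 17.8, 20.4 and 22.4 TPM in WT-PLN and at 12.2, 12.3 and 15.5 TPM in R14del-PLN samples. The RV samples of WT-PLN were at 21.0, 19.9 and 26.6 TPM and those of R14del-PLN at 13.5, 15.2 and 12.9 TPM. The lowest WT-PLN value, in the LV of the sample labelled replicate 1, stood above the highest R14del-PLN value, in LV replicate 3. The means were 20.2 ± 2.31 TPM against 13.3 ± 1.91 TPM in the LV and 22.5 ± 3.61 TPM against 13.9 ± 1.19 TPM in the RV (SD, n = 3 each). The log2 difference was -0.57 in the LV (SE 0.15, limma unadjusted p = 0.0018, adjusted p = 0.142) and -0.65 in the RV (SE 0.15, limma unadjusted p = 0.000576, adjusted p = 0.103). In the RV it was called after quantile normalization, upper quartile scaling and removal of mitochondrially encoded genes, with limma adjusted p of 0.00152, 0.00133 and 0.0186. In the LV the limma adjusted p was 0.0141 after quantile normalization, 0.0131 after upper quartile scaling and 0.0231 without mitochondrially encoded genes. The differences were then -0.45, -0.44 and -0.57, each below the fold of 1.5 required for a call.

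Foxo1, a FoxO factor known from liver, vessel wall and muscle, was at 1.76, 3.05 and 2.91 TPM in WT-PLN LV and at 1.65, 1.75 and 1.77 TPM in R14del-PLN LV. The sample labelled WT-PLN replicate 1 lay within the range of the R14del-PLN samples and the other 2 lay above it. Foxo1 in the RV was at 1.59, 2.16 and 2.03 TPM in WT-PLN and at 1.68, 1.76 and 1.58 TPM in R14del-PLN samples, and the groups overlapped. The log2 difference was -0.37 in the LV (SE 0.15, limma unadjusted p = 0.0264, adjusted p = 0.426) and -0.13 in the RV (SE 0.15, limma adjusted p = 1). Without both samples labelled WT-PLN replicate 1 the LV difference was -0.55 (limma adjusted p = 0.0493), still under the fold required. The log2(TPM + 1) scale understates differences at such low levels, since 1 is added to every value.

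Foxo4, the X-linked FoxO factor, did not separate the genotypes. In the LV it ran from 19.4 to 22.7 TPM in WT-PLN and from 15.4 to 23.1 TPM in R14del-PLN samples, and in the RV from 16.8 to 20.2 TPM and from 15.3 to 23.9 TPM. The log2 difference was -0.12 in the LV (95% interval -0.51 to 0.26) and -0.02 in the RV (95% interval -0.40 to 0.36). The highest of the 12 values was in R14del-PLN RV replicate 2, which also had the highest Trim63 value.

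The atrogenes did not pass the test in any comparison. Fbxo32 was at 19.3, 32.3 and 28.1 TPM in WT-PLN LV and at 14.7, 17.1 and 24.0 TPM in R14del-PLN LV, where the ranges overlapped. In the RV it was at 21.6, 26.9 and 32.1 TPM in WT-PLN and at 17.4, 19.9 and 16.3 TPM in R14del-PLN samples, and here all 3 R14del-PLN samples were below the WT-PLN samples. The sample labelled WT-PLN replicate 1 was the lowest of its group in both ventricles. The log2 difference of Fbxo32 was -0.49 in the LV (SE 0.21, limma unadjusted p = 0.0374, adjusted p = 0.472) and -0.55 in the RV (SE 0.21, limma unadjusted p = 0.0216, adjusted p = 0.634), and without the samples labelled WT-PLN replicate 1 it was -0.69 in each (limma adjusted p = 0.114 and 0.219). Trim63, which marks sarcomere proteins for breakdown, was at 74.1, 72.2 and 80.8 TPM in WT-PLN LV and at 61.9, 63.8 and 85.4 TPM in R14del-PLN LV. In the RV it was at 63.7, 61.4 and 63.9 TPM in WT-PLN and at 59.2, 87.8 and 58.6 TPM in R14del-PLN samples. In each ventricle a single R14del-PLN sample, LV replicate 3 and RV replicate 2, lay above all WT-PLN samples, and the other 2 lay below them. The log2 difference of Trim63 was -0.12 in the LV (95% interval -0.47 to 0.23) and 0.09 in the RV (95% interval -0.26 to 0.45). Its sign turned in the LV after quantile normalization and upper quartile scaling and in the RV without R14del-PLN replicate 2, so no direction can be given.

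Irs2 had the widest spread of the group. It was at 1.30, 12.9 and 6.40 TPM in WT-PLN LV and at 0.578, 0.536 and 0.982 TPM in R14del-PLN LV. Irs2 in the RV was at 1.29, 11.8 and 3.61 TPM in WT-PLN and at 0.555, 0.605 and 0.599 TPM in R14del-PLN samples. The WT-PLN samples of one number resembled each other across ventricles, with replicate 2 highest and replicate 1 lowest, while 5 of 6 R14del-PLN samples lay between 0.536 and 0.605 TPM. The groups did not overlap, but the SD of the WT-PLN groups was nearly as large as their mean: 6.86 ± 5.80 TPM against 0.699 ± 0.246 TPM in the LV and 5.56 ± 5.51 TPM against 0.586 ± 0.0275 TPM in the RV (SD, n = 3 each). The mean of WT-PLN was 9.82 times that of R14del-PLN in the LV and 9.49 times in the RV. The log2 difference was -1.87 in the LV (SE 0.59, limma unadjusted p = 0.00718, adjusted p = 0.266) and -1.69 in the RV (SE 0.59, limma unadjusted p = 0.0130, adjusted p = 0.536). Without the samples labelled WT-PLN replicate 1 it was -2.59 in the LV (limma adjusted p = 0.00298) and -2.27 in the RV (limma adjusted p = 0.0101), and Irs2 was then called in both. Without WT-PLN LV replicate 2, the sample with the highest value, the LV difference was -1.29 (limma adjusted p = 0.693), and without WT-PLN RV replicate 2 the RV difference was -1.03 (limma adjusted p = 1), so the size of both ratios rests on the WT-PLN samples numbered 2.

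Irs2 lies on chromosome 8 from 10984681 to 11008458 on the minus strand. Its RefSeq promoter is shown because it carries an insulin response type motif, CAAAACA on the opposite strand, next to the E-box CACGTG; both are in capitals. The window is chr8:11008880-11009179 on the minus strand of GRCm38.p6.
Irs2: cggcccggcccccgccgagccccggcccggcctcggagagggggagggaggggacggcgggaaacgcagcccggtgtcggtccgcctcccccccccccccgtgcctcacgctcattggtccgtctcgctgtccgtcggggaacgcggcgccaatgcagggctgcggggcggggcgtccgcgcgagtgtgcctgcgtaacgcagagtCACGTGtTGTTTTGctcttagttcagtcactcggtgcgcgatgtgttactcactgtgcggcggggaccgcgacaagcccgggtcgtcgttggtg
The E-box begins 44 bases and the other match 37 bases before the RefSeq start site. That site lies upstream of the gene span given above, which came from GENCODE. CAAAACA was in 6.28% and CACGTG in 7.15% of all RefSeq promoters, and Irs1 was the other member with each.

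Irs1, which acts beside Irs2 at the insulin receptor, was between 1.14 and 2.29 TPM in all samples. Its log2 difference between genotypes was -0.01 in the LV (95% interval -0.31 to 0.28) and -0.13 in the RV (95% interval -0.42 to 0.17). Gm9747, a gene with a mean of 1.45 TPM, overlaps it on the opposite strand over 2822 bases of identical sequence, and whether reads were counted by strand is not given in the sources used here, so the level of Irs1 is uncertain. Opposite-strand genes also overlap Foxo1 (Gm20402), Fbxo32 (Gm15943) and Irs2 (9530052E02Rik). These have no value in the deposited data, so their share in the levels of Foxo1, Fbxo32 and Irs2 is unknown. Pik3r1 was at 28.2, 28.0 and 34.7 TPM in WT-PLN LV and at 17.9, 20.6 and 25.9 TPM in R14del-PLN LV, with all 3 R14del-PLN samples below the WT-PLN samples. Pik3r1 in the RV was at 29.5, 27.0 and 39.2 TPM in WT-PLN and at 21.3, 28.5 and 21.9 TPM in R14del-PLN samples, where R14del-PLN replicate 2 fell within the WT-PLN range. The log2 difference of Pik3r1 was -0.48 in the LV (SE 0.18, limma unadjusted p = 0.0164, adjusted p = 0.356) and -0.39 in the RV (SE 0.18, limma unadjusted p = 0.0429, adjusted p = 0.784).

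**Figure D2:**
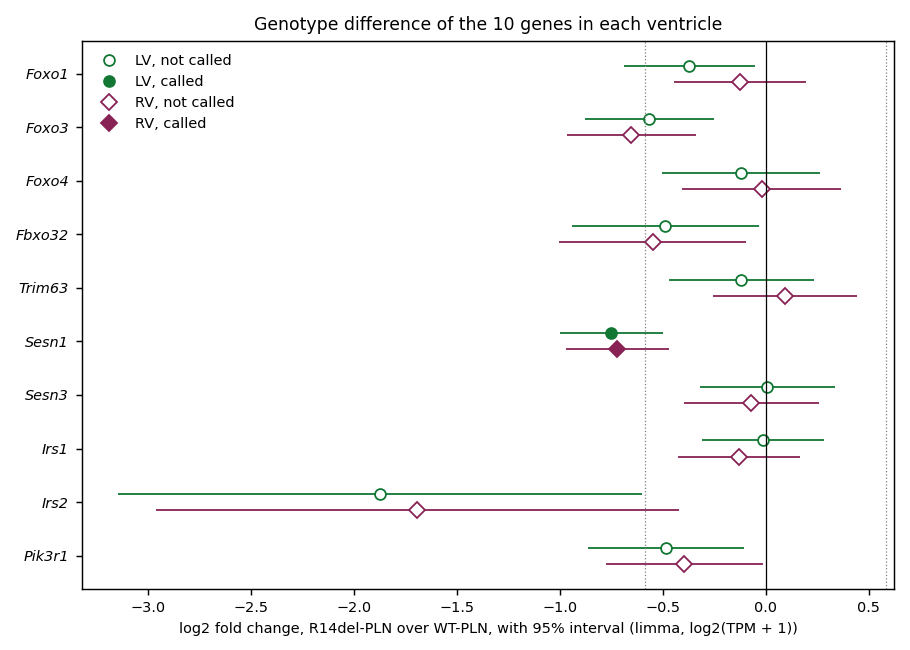
Log2 fold change of R14del-PLN over WT-PLN for each gene (horizontal axis, limma on log2(TPM + 1), lines are 95% intervals), with circles for LV and diamonds for RV; filled symbols passed the test and dotted lines mark a fold of 1.5. Sesn1 is filled in both ventricles, at -0.75 and -0.72, and Irs2 lies farthest to the left with the widest intervals.

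Counted over the group, 1 of 10 genes was called in the LV, where 0.519% of all tested genes were called and 0.423% were called lower. In the RV 1 of 10 was called, where 0.271% of all tested genes were called and 0.2% were called lower. In the LV 9 of 10 differences were below 0, as were 71.7% of all tested genes, and in the RV 9 of 10, against 50.9% of all tested genes. The median log2 difference of the 10 genes was -0.43 in the LV, where that of all tested genes was -0.09, and -0.26 in the RV, where that of all tested genes was -0.0034. At an unadjusted p of 0.05, 6 members were lower in the LV (7.85% of all tested genes) and 5 in the RV (3.4% of all tested genes). Ranges did not overlap, with R14del-PLN lower, for 4 members in the LV (8.47% of all tested genes) and for 4 in the RV (5.79%). Sesn1, Foxo3 and Irs2 were separated in this way in both ventricles, as were 2.38% of all tested genes. The LV and RV counts are not independent where ventricles come from the same hearts. Because the 10 genes were chosen with earlier results of these data known, their counts beside all tested genes are a description and no independent evidence. Red cell markers moved with genotype as well: their summed level was 2087 to 2316 TPM in WT-PLN LV and 1093 to 2142 TPM in R14del-PLN LV, and 1461 to 1736 TPM in WT-PLN RV and 956 to 1368 TPM in R14del-PLN RV. At an unadjusted p of 0.05, 4 of 5 red cell markers were lower in the LV and 3 of 5 in the RV, 0 were called, and their part in the results was not tested. Atrial cardiomyocyte markers summed to 240 to 1365 TPM in WT-PLN LV and 174 to 348 TPM in R14del-PLN LV, and to 130 to 931 TPM in WT-PLN RV and 76.3 to 567 TPM in R14del-PLN RV; 2 of 8 were lower in the LV at an unadjusted p of 0.05, and their part was not tested either. Of all marker lists but that of red cells, limma called 0 of 57 tested genes between genotypes, and 9 in the LV and 2 in the RV had an unadjusted p under 0.05.

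No member passed the test between the ventricles. Between RV and LV, 0 of 10 members were called in WT-PLN hearts and 0 of 10 in R14del-PLN hearts, where limma called 0 of 12526 genes (0%) in each comparison and 1811 and 823 genes had an unadjusted p under 0.05, none of them a member. In WT-PLN hearts 85.9% of all tested genes were lower in the RV, with a median log2 difference of -0.17. That median was 0.005 after quantile normalization and 0.004 after upper quartile scaling. Trim63 was at -0.26 (SE 0.16, limma adjusted p = 0.436) and Irs1 at 0.23 (SE 0.14, limma adjusted p = 0.429). The largest difference of a member was that of Foxo1, at -0.27 (SE 0.15, limma adjusted p = 0.389). Same-numbered samples deviated together in WT-PLN hearts. With genotype and number as a fixed block, limma called 0 of 10 members and 12 of all tested genes (0.0958%) for RV against LV. The smallest limma adjusted p of a member, that of Foxo1, was 0.337. Within the 3 same-numbered pairs Foxo1, Trim63, Sesn1 and Irs2 were lower in the RV in every pair, as were 58.1% of all tested genes, and Irs1 was higher in every pair, as were 3.93%. In R14del-PLN hearts the largest was that of Pik3r1, at 0.15 (SE 0.18, limma adjusted p = 0.972). An interaction term asked whether the genotype difference itself depended on the ventricle, and for it 0 members and 0 of all tested genes (0%) were called, and 127 genes had an unadjusted p under 0.05, again with no member among them. The interaction of Sesn1 was 0.03 (SE 0.16, 95% interval -0.33 to 0.38), that of Irs2 was 0.18 (95% interval -1.62 to 1.98), and the largest, that of Foxo1, was 0.24 (95% interval -0.21 to 0.70).

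The pathway around these genes was followed in 7 lists, whose genes overlap in part and none of which includes a member. The values below are differences of R14del-PLN from WT-PLN on the log2(TPM + 1) scale. For comparison, 0.519% of all tested genes were called in the LV and 0.271% in the RV. At an unadjusted p of 0.05, 7.85% of all tested genes were lower in the LV and 3.4% in the RV. In the list of insulin and IGF1 receptor to AKT signalling, 0 of 34 tested genes were called in either ventricle, with medians of -0.09 in the LV and -0.03 in the RV, and 1 was called in the LV without the sample labelled WT-PLN LV replicate 1. Its largest difference was that of Trib1, a pseudokinase, at -0.95 in the LV and -0.82 in the RV (limma adjusted p = 0.164 and 0.361). Tbc1d4, which holds GLUT4 vesicles back until AKT inactivates it, had differences of 0.72 and 0.76 (limma adjusted p = 0.193 and 0.206). The receptor Insr was at -0.10 and -0.05 and Akt2 at -0.14 and -0.10. At an unadjusted p of 0.05, 2 genes of the list were higher and 3 lower in the LV, and 2 higher and 1 lower in the RV.

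Among mTOR complexes and their inputs, 2 of 32 tested genes were called lower in the LV and 1 in the RV, and 0 higher. Ddit4 (REDD1), an inhibitor of mTORC1 induced by stress and glucocorticoids, fell by 1.56 in the LV and by 1.42 in the RV (SE 0.26 each, limma adjusted p = 0.0170 and 0.0372), from 43.0 ± 10.3 to 14.3 ± 5.57 TPM in the LV and from 32.1 ± 4.19 to 11.6 ± 3.34 TPM in the RV (SD, n = 3 each). Gatsl3, the older symbol of the arginine sensor Castor1, fell by 0.62 in the LV (limma adjusted p = 0.0329) and had a difference of -0.45 in the RV (limma adjusted p = 0.210). Like Sesn1, both encode inhibitors of mTORC1. The median over the list was -0.08 in the LV and -0.02 in the RV. The LV count was 0 without WT-PLN LV replicate 2 or 3 or R14del-PLN LV replicate 1 or 2, and 1 without R14del-PLN RV replicate 3 or any single WT-PLN RV sample. The RV count was 0 without any single WT-PLN RV sample, R14del-PLN RV replicate 1 or 2, WT-PLN LV replicate 3 or R14del-PLN LV replicate 2.

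Of 36 tested genes known as FoxO targets, 3 were called lower in the LV and 1 in the RV, and 0 higher. Cdkn1a, the cell cycle inhibitor p21, fell by 1.57 in the LV (limma adjusted p = 0.0198) and had a difference of -1.42 in the RV (limma adjusted p = 0.0507). Klf2, a flow-responsive factor of endothelium, fell by 1.42 in the LV (limma adjusted p = 0.0335) and had a difference of -1.36 in the RV (limma adjusted p = 0.0652), and Ddit4 was the third. At an unadjusted p of 0.05, 11 were lower and 1 higher in the LV and 8 lower and 2 higher in the RV. Bnip3, a mitophagy receptor, had differences of -0.70 and -0.55, Ccng2 of -0.50 and -0.44, and Tnfsf10, which encodes the death ligand TRAIL, of 0.46 and 0.64, none past the adjusted test. The list held differences in both directions, with medians of -0.18 in the LV and -0.13 in the RV, against -0.09 and -0.0034 over all tested genes. Each of the called targets is also induced by other factors. Without WT-PLN LV replicate 2 or 3 or R14del-PLN LV replicate 1 or 2, 0 targets were called in the LV. In the RV 0 were called without WT-PLN RV replicate 2 or 3, R14del-PLN RV replicate 1 or 2 or R14del-PLN LV replicate 2, and up to 4 were called under other alternatives.

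Of 25 FoxO regulators and partner forkhead factors, 0 were called in either ventricle, with medians of -0.11 and -0.05. At an unadjusted p of 0.05, 2 were lower in the LV and 1 in the RV, near the shares of all tested genes (7.85% and 3.4%). The largest differences were that of Ywhaz, a 14-3-3 protein that retains FoxO in the cytoplasm, at -0.56 in the LV (limma adjusted p = 0.235), and that of Mstn (myostatin), at -0.92 in the RV (limma adjusted p = 0.180). Of 35 muscle ubiquitin ligases and atrophy genes, 2 were called lower in the LV and 1 in the RV, and 0 higher, with medians of -0.13 and -0.03. The called genes were Mt2, a metallothionein, at -1.84 in the LV (limma adjusted p = 0.0236), and Klf15, at -1.02 in the LV and -0.99 in the RV (limma adjusted p = 0.00553 and 0.00847), and neither is a ubiquitin ligase. The LV count of this list was 1 without WT-PLN LV replicate 2 or 3 or R14del-PLN LV replicate 1 or 2, and the RV count was 0 without WT-PLN RV replicate 2 or R14del-PLN RV replicate 3 and 2 without WT-PLN LV replicate 1 or WT-PLN RV replicate 1. The relatives of Trim63 in the sarcomere, Trim54 and Trim55, had differences of -0.05 and 0.07 in the LV and of 0.13 and 0.07 in the RV. Of 13 fasting and lipid-supply response genes, 0 were called and 0 had an unadjusted p under 0.05, with medians of -0.12 and -0.11. Pdk4, which spares glucose in fasting, was at -0.44 and -0.41 (limma adjusted p = 0.769 and 1), and Ucp2 was at -0.38 and -0.51 (limma adjusted p = 0.752 and 0.947).

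The list that stood farthest from 0 was that of glucocorticoid-induced genes, where 9 of 16 were called lower in the LV and 5 in the RV, and 0 higher, with medians of -1.12 and -1.02. Tsc22d3 (GILZ) fell by 1.20 in the LV and by 1.14 in the RV (limma adjusted p = 0.0023 and 0.00422), and Zbtb16 fell by 1.30 and by 1.26 (limma adjusted p = 0.00553 and 0.00897). Per1, Klf15 and Ddit4 were called in both ventricles as well, and Fkbp5, Klf9, Cebpd and Mt2 in the LV. The LV count was 4 without WT-PLN LV replicate 2 or 3 or R14del-PLN LV replicate 1 or 2, and the RV count was 1 without WT-PLN RV replicate 2 and 2 without WT-PLN RV replicate 3 or R14del-PLN RV replicate 3. Nr3c1, the receptor itself, was at 0.18 and 0.27 (limma adjusted p = 0.813 and 0.988). Of these 16 genes, Ddit4, Klf15, Mt1, Mt2, Sgk1 and Pdk4 are also in other lists, and the list was drawn up with earlier results of these data known, so it is not independent evidence of a direction.

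**Figure D3:**
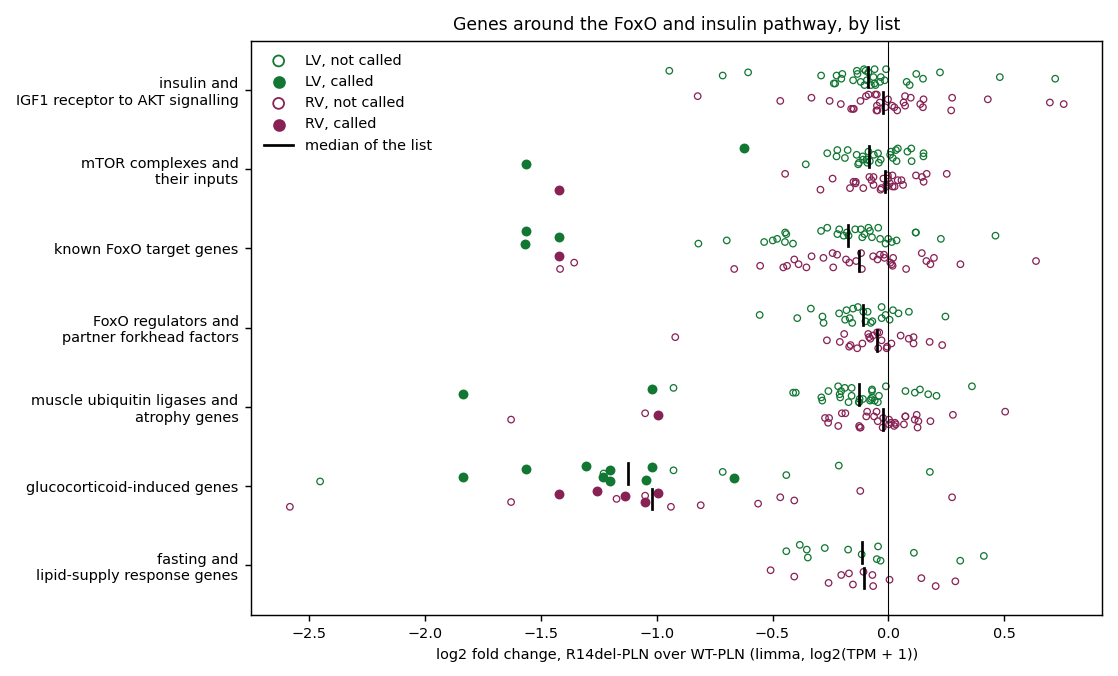
Log2 fold change of R14del-PLN over WT-PLN (horizontal axis) for each tested gene of the 7 lists, with LV above RV in each row; filled points passed the test and black bars are medians. The medians of 6 lists lie between -0.18 and -0.02, and that of glucocorticoid-induced genes at -1.12 in the LV and -1.02 in the RV.

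Genes whose pattern over the 12 samples was most like that of a member were ranked by Pearson's r of log2(TPM + 1). This is a description, since the samples share the genotype groups. For Sesn1 they were Zbtb16 (r = 0.984), Per1 (r = 0.983) and Fam107a (r = 0.982). For Foxo3 they were Lrrc58 (r = 0.975), Tmem164 (r = 0.953) and Klhl38 (r = 0.952). For Irs2 they were Sik1 (r = 0.993), Hspa1a (r = 0.989) and Hand2 (r = 0.987). Of these, Zbtb16, Per1 and Fam107a were called in both ventricles, and the others in neither. Hspa1a is, however, among the genes that the study reported as lower in both ventricles, at the same thresholds but by its own test.

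Sesn1 and Foxo3 are neighbours on chromosome 10, which also carries the knock-in locus. Foxo3 lies from 42181841 to 42276755 on the minus strand, 273.4 kb from Sesn1, and Pln lies a further 11.1 Mb along. This window was looked at after the values of both genes had been seen. Within 2 Mb on either side, 34 other genes were tested and 1 was called in each ventricle: Gm9855, between Sesn1 and Foxo3, which rose by 1.66 in the LV and by 1.58 in the RV (limma adjusted p = 0.000394 and 0.000655). Armc2, the other tested gene between them, was at 0.46 in the LV and 0.59 in the RV (limma adjusted p = 0.574 and 0.669). The median difference of the 34 genes was -0.0041 in the LV and 0.0551 in the RV, and 17 and 13 of them were below 0.

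**Figure D4:**
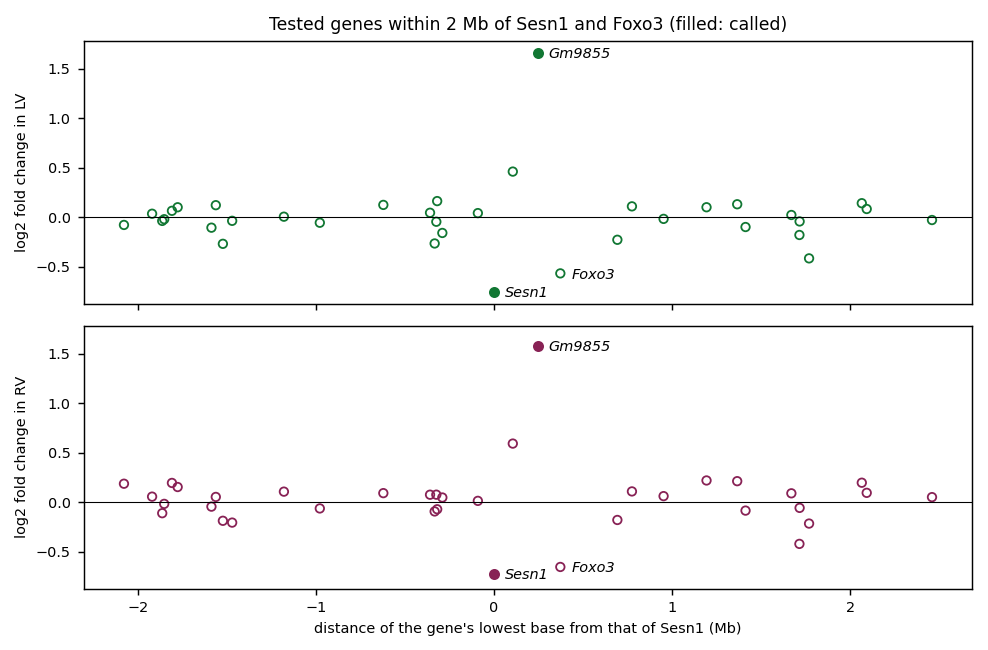
Log2 fold change of R14del-PLN over WT-PLN in LV (upper panel) and RV (lower panel) for tested genes within 2 Mb of Sesn1 and Foxo3, against the distance of each gene's lowest base from that of Sesn1 in Mb; filled points passed the test. Sesn1 and Foxo3 lie below the other genes in both panels, and Gm9855 lies between them at 1.66 and 1.58.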

How the data were processed

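RNA of 3 LV and 3 RV samples per genotype was sequenced from polyA stranded libraries. The authors deposited 1 TPM value per gene and sample, and these values were used as deposited. The study names CLC Genomics Workbench and GRCm38 for its reads; the program and annotation behind the TPM values, and whether strand was used, are not given in the sources used here. Groups and replicate numbers came from the sample titles.

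Differences were tested with limma 3.58.1 in R 4.3.3 (intensity trend) on log2(TPM + 1), in a model of the 4 groups over all 12 samples, for the 12526 genes that averaged 0.5 TPM or more. Calls between groups needed both thresholds of the study, an adjusted p (Benjamini-Hochberg) no higher than 0.05 and a fold no smaller than 1.5. The study applied these thresholds in its own program and reported more genes in each ventricle than were called here. The interaction was called by the adjusted p alone. The model was tested on simulated data with independent errors for each sample and planted changes larger than that of Sesn1. These data held no shared deviation of same-numbered samples, so the simulation does not cover that feature. The 10 genes and all lists were chosen with earlier results of these data known. Named were the 10 members, each list gene called between genotypes or ventricles, or else that with the largest difference between genotypes in each ventricle, and the 3 genes most like a member; Tbc1d4, Insr, Akt2, Bnip3, Ccng2, Tnfsf10, Trim54, Trim55, Sesn2, Nr3c1, Gm9855 and Armc2 were added after their values were seen. Positions came from GENCODE M21 (GRCm38) and promoters from RefSeq (GRCm38.p6). Near-identical copies were found with BLAST 2.17.0 (95% identity over 80% of the shorter transcript). Alternatives were pseudocounts of 0.5 and 0.1, other filters, no trend, no fold threshold, other scalings, single ventricles, replicate blocks and samples left out. Same-numbered RV and LV samples deviated together in WT-PLN hearts (r of 0.657, 0.321 and 0.457 over genes), so the number pairs that comparison. In R14del-PLN hearts r was 0.389, 0.23 and 0.0542 for same-numbered samples and -0.396 to 0.16 for differently numbered ones. With genotype and number as a fixed block, limma called 0 of all tested genes for RV against LV in R14del-PLN hearts.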

Additional observations from a re-analysis of the deposited data

How the results depend on the processing

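Of 590 values of the 10 genes over 27 alternatives, 553 kept their direction and their side of the threshold, 10 lost a call, 6 gained a call and 21 changed sign. The values counted are the genotype differences of all 10 genes. Filters, trend, fold threshold, single-ventricle fits and blocks leave a genotype difference itself unchanged, as does leaving out a sample of the other ventricle. In these alternatives the direction could not change, so only the adjusted p or the call could. The count of values that kept their direction is therefore no measure of robustness. For RV against LV they cover only Foxo1 in WT-PLN and Pik3r1 in R14del-PLN, and for the interaction only Foxo1. With only the 6 samples of a ventricle, 0 members were called in the LV and 0 in the RV, against 1 each. In the RV 2 members (Foxo3 and Sesn1) were called after quantile normalization, upper quartile scaling or removal of mitochondrially encoded genes. Without both samples labelled WT-PLN replicate 1, 2 members (Sesn1 and Irs2) were called in each ventricle. With each sample left out in turn, 0 to 2 members were called in the LV and 0 to 1 in the RV. The LV count was 0 without WT-PLN LV replicate 2 or 3 or R14del-PLN LV replicate 1 or 2, and 2 without WT-PLN LV replicate 1; the RV count was 0 without WT-PLN RV replicate 2 or 3 or R14del-PLN RV replicate 2 or 3. The causes were not tested.

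Among the values counted above, signs turned only for differences near 0. After quantile normalization Trim63 LV was 0.0121, Irs1 LV 0.0618 and Foxo4 RV 0.00255, and after upper quartile scaling Trim63 LV was 0.0122, Irs1 LV 0.0591 and Foxo4 LV 0.0037. Without mitochondrially encoded genes Foxo4 RV was 0.0213, and without both WT-PLN replicate 1 samples Sesn3 LV was -0.10. With each sample left out in turn, Sesn3 ran from -0.10 to 0.14 in the LV and from -0.14 to 0.0198 in the RV, Irs1 from -0.10 to 0.0603 in the LV, Foxo4 from -0.26 to 0.0138 in the LV and from -0.22 to 0.0919 in the RV, and Trim63 from -0.10 to 0.19 in the RV. The log2 difference of Sesn1 stayed between -0.85 and -0.62 in the LV and between -0.76 and -0.68 in the RV, with limma adjusted p from 0.000195 to 0.0763 and from 0.000306 to 0.108. A filter at a mean of 5 TPM left 6 members, since Foxo1, Sesn3, Irs1 and Irs2 were below it.

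The replicate number as a fixed block left Sesn1 as the 1 member called in each ventricle, as did genotype and number as a random block. Both left 0 members for RV against LV and for the interaction. Over all genes the fixed block of number gave 119 calls in the LV and 62 in the RV, against 65 and 34. The fixed block of genotype and number gave 12 for RV against LV in WT-PLN hearts, against 0. Between genotypes same-numbered samples correlated at -0.0209 to 0.156 in the LV and 0.061 to 0.219 in the RV. Differently numbered samples correlated at -0.164 to 0.0687 in the LV and -0.162 to 0.0788 in the RV. Whether samples of one number share an effect across genotypes was not tested.

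Over all alternatives, 19 to 231 genes were called in the LV and 14 to 88 in the RV. Quantile normalization and upper quartile scaling shifted the median LV difference of all genes by 0.10 and 0.11 and raised the share of higher calls in the LV from 18.5% to 36.9% and 36.6%. In the RV the share went from 26.5% to 34.9% and 36.9%, and to 41.7% without mitochondrially encoded genes. Among the lists, called FoxO targets ran from 0 to 4 in each ventricle, glucocorticoid-induced genes from 4 to 11 in the LV and from 1 to 8 in the RV, mTOR genes from 0 to 2 and from 0 to 1, muscle ligase and atrophy genes from 1 to 3 and from 0 to 2, and insulin to AKT genes from 0 to 3 and from 0 to 1. The TPM unit keeps no depth, so the counting error of low genes such as Foxo1, Irs1 and Irs2 is unknown.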
